A study of Mus musculus with 2 samples.

Results

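Rasgrf1 and Ntm are imprinted genes of mouse Chr 9, and their signals are described here together with those of their paralogs Rasgrf2 and Opcml and of Ctsh and Morf4l1, genes that flank Rasgrf1. The members were all probe sets that the platform annotation assigns to one of these symbols alone, which gave 13 of the 45101 probe sets on the array. They belong to 5 of the 6 listed genes, out of 18193 genes named on the array, because the probe set that lists Morf4l1 lists 3 symbols. RNA came from the whole head of newborn mice born to carriers of the T(2:9)11H translocation and was measured on 1 Affymetrix array per genotype. In the head named MatDp(dist2), the Chr 2 segment distal of the translocation breakpoint was a maternal duplication, and distal Chr 9 was a paternal duplication. In the head named PatDp(dist2), distal Chr 2 was a paternal duplication, and distal Chr 9 was a maternal duplication. Both heads thus carried both duplicated parts, with opposite parental origin on each chromosome, and no head with 1 copy from each parent is among the samples. The labels do not place the breakpoint on Chr 9, and they give neither the sex nor the number of animals behind a sample.

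An imprinted gene is transcribed mainly from the copy inherited from a given parent. Rasgrf1 encodes an exchange factor that loads Ras and Rac with GTP in neurons in response to calcium and glutamate receptors, and in the neonatal mouse brain it is transcribed from the paternal copy, under a control region upstream of the gene that is methylated on that copy. Ntm encodes neurotrimin, a lipid-anchored adhesion molecule of the IgLON family, which sits on the surface of neurons. Which parental copy of Ntm is used is not given in the sources used here. Opcml and Rasgrf2 are the paralogs, Ctsh encodes the lysosomal protease cathepsin H, and Morf4l1 encodes a chromodomain protein of histone acetyltransferase and deacetylase complexes. The comparison asks which of these transcripts differ between a head with paternal and a head with maternal distal Chr 9. Distal Chr 2 also differed in parental origin between these heads. With 1 array per genotype, effects of Chr 9, of Chr 2 and of the sample itself cannot be told apart.

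Values are MAS5 signals, a linear intensity per probe set, and each ratio has MatDp(dist2) on top and PatDp(dist2) below. A floor of 187 was set on the signal, the mean of the median signals of both arrays (201 in MatDp(dist2) against 173 in PatDp(dist2)). Where a gene was dimmer than this on a single array, its brighter signal divided by 187 gives the bound that is printed as "at least" a fold. No fold is given where both signals were dimmer. A probe set or gene that reached it on at least 1 array is called measured. Without replicates there is no spread between animals and no test, so no difference below is known to exceed that spread. For the 20784 probe sets that reached the floor on each array, the median log2 ratio was 0.04 and its robust SD 0.41. The ratio was 2-fold or more in favour of the MatDp(dist2) head for 4.95% of such probe sets whose log2 signals averaged 8 to 9 and for 4.31% of those of 9 to 10, the range of most members. In bulk tissue, fewer cells of a type and less RNA per cell cannot be told apart.

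Of the 13 member probe sets 11 were measured, 8 of them on both arrays. The signal was higher in MatDp(dist2) on 9 of the 11. Of these 9, 3 were bounds, of Rasgrf1 and Rasgrf2, that reached the floor in MatDp(dist2) alone. The floor fixed the direction of these bounds, so the count of 9 is not evidence of a shared direction. At least a 2-fold higher signal in MatDp(dist2) was seen on 4, which were 2 of Opcml, 1 of Rasgrf1 and 1 of Ntm. In PatDp(dist2) 0 were 2-fold higher. Over all 24229 measured probe sets, 4.15% were higher by 2-fold or more in MatDp(dist2) and 2.81% in PatDp(dist2). The 4 probe sets come from 3 genes and share their RNA, so they are not replicates of the condition. Counted under other settings the 4 became 3 with median centring, quantile normalization, a lowess fit or an offset of 100, 6 when the floor was the 30th percentile, and 1 when it was the 70th.

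**Figure D1:**
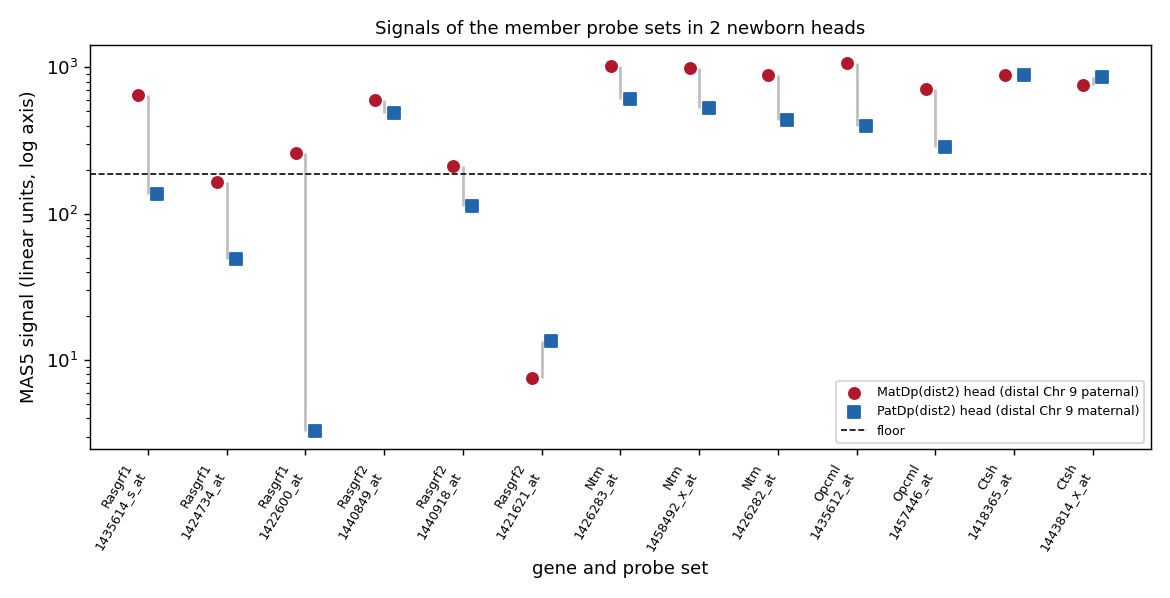
MAS5 signal (log axis) of each of the 13 member probe sets, with the MatDp(dist2) head as circles, the PatDp(dist2) head as squares, 1 array each, and the floor of 187 dashed. The symbols lie far apart for Rasgrf1, apart for Ntm and Opcml, and close together for Ctsh and for the brightest Rasgrf2 probe set.

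Rasgrf1 was higher in MatDp(dist2), where distal Chr 9 was paternal, on both of its probe sets that were measured, out of 3. Its brightest one, 1435614_s_at, gave 642.6 in MatDp(dist2) against 136.1, below the floor, in PatDp(dist2), which makes it at least 3.44-fold higher. Probe set 1422600_at, assigned to the accession of the Rasgrf1 mRNA, had 261.5 in MatDp(dist2) against 3.3 in PatDp(dist2), a bound of at least 1.40-fold. Probe set 1424734_at did not reach the floor on either array, with 165.3 in MatDp(dist2) against 49.3 in PatDp(dist2). No Rasgrf1 probe set reached the floor in PatDp(dist2), in which distal Chr 9 was maternal, while 2 reached it in MatDp(dist2). These 2 count as measured through MatDp(dist2) alone. The floor thus fixed the direction of their bounds, and their agreement in direction is not independent support. MAS5 signals near background are noisy, and the suffix s marks probes that can match more than 1 transcript. A ratio or bound at least as high as that of 1435614_s_at was found for 0.652% of all measured probe sets. For 1422600_at this share was 16.7%.

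The size of the Rasgrf1 difference depended on the floor. With the floor at the 30th percentile, a signal of 75.1, both signals of 1435614_s_at counted as measured and their ratio was 4.72-fold. With it at the 70th percentile, a signal of 465, the bound was at least 1.38-fold. The lower floor raised the bound of 1422600_at to at least 3.48-fold. With the floor at the 70th percentile, 1422600_at lay below it on both arrays and had no value.

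Rasgrf2, the paralog of Rasgrf1 on Chr 13, a chromosome that the translocation does not involve, differed less. Probe set 1440849_at had signals of 594.7 in MatDp(dist2) against 487.2 in PatDp(dist2), a 1.22-fold difference. Probe set 1440918_at had 210.9 in MatDp(dist2) against 113.2 in PatDp(dist2), at least 1.13-fold. Probe set 1421621_at was far below the floor in both, with 7.6 in MatDp(dist2) against 13.5 in PatDp(dist2). With the floor at the 30th percentile the ratio of 1440918_at was 1.86-fold, the highest of Rasgrf2. In the reported setting 29.1% of measured probe sets had a ratio at least as high as that of 1440849_at.

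The regions before the start sites of these paralogs are shown because parental marks on DNA are carried by methylation of the dinucleotide CG, which is in capitals. The sequences are 250 bases before the annotated start, from RefSeq on GRCm38.p6, Rasgrf1 at chr9:89909525-89909774 on the plus strand and Rasgrf2 at chr13:92131829-92132078 on the minus strand.
Rasgrf1: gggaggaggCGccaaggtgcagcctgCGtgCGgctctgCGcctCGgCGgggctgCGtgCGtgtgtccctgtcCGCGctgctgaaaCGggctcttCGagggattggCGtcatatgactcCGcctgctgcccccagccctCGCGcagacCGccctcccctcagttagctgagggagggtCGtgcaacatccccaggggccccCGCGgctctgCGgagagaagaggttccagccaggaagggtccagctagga
Rasgrf2: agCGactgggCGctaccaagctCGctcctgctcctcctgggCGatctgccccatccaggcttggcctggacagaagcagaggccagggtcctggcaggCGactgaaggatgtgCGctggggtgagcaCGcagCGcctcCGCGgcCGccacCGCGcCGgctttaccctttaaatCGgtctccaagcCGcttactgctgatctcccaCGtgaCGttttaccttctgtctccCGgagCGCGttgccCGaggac
The Rasgrf1 window held 21 CG and the Rasgrf2 window 22, with each CG read the same on both strands. Windows with at least 21 CG made up 16.3% of all 32851 such windows in the table, and those with at least 22 made up 14.8%, against a median of 6 CG. Both paralogs thus start in CG-rich sequence, and methylation was not measured here. Whether the Rasgrf1 window overlaps the control region upstream of the gene was not examined.

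Ntm was higher in MatDp(dist2) by a smaller ratio on all 3 of its probe sets. Probe set 1426283_at had signals of 1024.6 in MatDp(dist2) against 607.5 in PatDp(dist2), a 1.69-fold difference. Probe set 1458492_x_at had 997.4 in MatDp(dist2) against 529.3 in PatDp(dist2), or 1.88-fold. Probe set 1426282_at had 891.9 in MatDp(dist2) against 435.2 in PatDp(dist2), or 2.05-fold. Unlike Rasgrf1, Ntm lay above the floor on every probe set in both heads. The 3 log2 ratios spanned 0.28, against a median span of 0.47 over the 973 genes with 3 probe sets above the floor on both arrays. Probe sets 1426283_at and 1426282_at are assigned to the same sequence record. Of all measured probe sets, 7.96% had a ratio as high as the lowest of Ntm and 3.79% as high as the highest. Probe set 1426282_at lay under 2-fold with median centring, quantile normalization, a lowess fit, the offset of 100 or the higher floor, with log2 ratios from 0.89 to 0.9998.

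Opcml, the paralog next to Ntm on Chr 9, encodes an IgLON adhesion protein of neurons and had a larger ratio than Ntm. Probe set 1435612_at had signals of 1070.8 in MatDp(dist2) against 399.6 in PatDp(dist2), a 2.68-fold difference. Probe set 1457446_at had 713.6 in MatDp(dist2) against 286.8 in PatDp(dist2), or 2.49-fold. Both ratios of Opcml lay above all 3 of Ntm. On the log2 scale the gap between the nearest values of the genes was 0.28, about the median span of 0.27 between probe sets of the same gene over 2820 genes with a pair of probe sets above the floor on both arrays. The difference between the genes could not be tested on 1 array per head. Of measured probe sets, 1.47% had a ratio at least as high as 1435612_at and 1.86% at least as high as 1457446_at. With the floor at the 70th percentile, 1457446_at fell below it in PatDp(dist2) and its bound was at least 1.53-fold.

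The windows before the starts of Ntm and Opcml are given for the same reason as those of the Rasgrf paralogs, with CG in capitals. RefSeq annotates a pair of starts for Ntm on the minus strand of GRCm38.p6, an outer one with the window chr9:29413453-29413702 and an inner one with chr9:29412686-29412935. The Opcml window is chr9:27791049-27791298 on the plus strand.
Ntm, outer start: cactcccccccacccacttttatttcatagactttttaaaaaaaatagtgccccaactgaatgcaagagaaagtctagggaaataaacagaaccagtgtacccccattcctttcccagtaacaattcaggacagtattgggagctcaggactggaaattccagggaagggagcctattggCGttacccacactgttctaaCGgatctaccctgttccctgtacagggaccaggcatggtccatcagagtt
Ntm, inner start: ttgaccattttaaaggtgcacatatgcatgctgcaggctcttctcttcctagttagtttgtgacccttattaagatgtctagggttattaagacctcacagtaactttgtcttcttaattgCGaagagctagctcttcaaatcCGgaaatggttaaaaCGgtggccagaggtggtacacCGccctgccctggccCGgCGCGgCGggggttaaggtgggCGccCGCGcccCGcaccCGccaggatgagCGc
Opcml: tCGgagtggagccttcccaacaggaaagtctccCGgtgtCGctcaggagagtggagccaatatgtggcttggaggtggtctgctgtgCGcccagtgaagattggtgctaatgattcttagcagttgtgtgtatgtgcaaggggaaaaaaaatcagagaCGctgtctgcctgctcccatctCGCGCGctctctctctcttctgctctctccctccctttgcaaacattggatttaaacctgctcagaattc
The outer Ntm window held 2 CG, a number reached by 81.2% of all windows, and the inner one held 14, reached by 29.4%. The Opcml window held 8, reached by 43% of windows. The starts of Ntm differ in CG content, and which start the probe sets read was not analysed here.

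The other genes of the IgLON family lie on other chromosomes and were also higher in MatDp(dist2). Negr1, a neuronal growth regulator, had signals of 1015.9 in MatDp(dist2) against 465.3 in PatDp(dist2), a 2.18-fold difference. Lsamp, the limbic system-associated membrane protein, had 1039.8 in MatDp(dist2) against 497.1 in PatDp(dist2), or 2.09-fold. Iglon5 had 301.3 in MatDp(dist2) against 206.9 in PatDp(dist2), or 1.46-fold. At least a 2-fold difference was thus seen for 2 of the 3, and both had ratios above the highest of Ntm, although neither gene lies on Chr 2 or Chr 9. Over all 12483 measured genes, each represented by its brightest probe set, 4.43% were higher by 2-fold or more in MatDp(dist2) and 3.47% in PatDp(dist2), with a median log2 ratio of 0.02.

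The gene next to Rasgrf1, Ctsh, had nearly equal signals. Probe set 1418365_at had 884.6 in MatDp(dist2) against 890.4 in PatDp(dist2), a ratio of 0.993. Probe set 1443814_x_at had 752.8 in MatDp(dist2) against 854.1 in PatDp(dist2), a ratio of 0.881. Of 10 other measured cysteine cathepsins and their inhibitors, all 10 had a lower signal in MatDp(dist2), 0 by 2-fold, with a median log2 ratio of -0.35. The protease gene Ctsb had 6093 in MatDp(dist2) against 8630 in PatDp(dist2), the inhibitor gene Cst3 had 4943 in MatDp(dist2) against 6956 in PatDp(dist2), and Ctsf had 259 in MatDp(dist2) against 346 in PatDp(dist2). Both ratios of Ctsh were nearer to 1 than the median of its family.

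Morf4l1 is given no value, because no probe set names it alone. Of 19 measured genes whose products work with its protein in the NuA4 and SIN3 complexes, 16 had a higher signal in MatDp(dist2) and the median log2 ratio was 0.13. None of the 19 differed 2-fold beside shares over all genes of 4.43% and 3.47%. The largest differences were those of Meaf6 (554 in MatDp(dist2) against 287 in PatDp(dist2)), the corepressor gene Sin3b (3150 in MatDp(dist2) against 4681 in PatDp(dist2)) and the ATPase gene Ruvbl2 (1536 in MatDp(dist2) against 1046 in PatDp(dist2)).

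Along Chr 9 the differences of Rasgrf1 and of the IgLON pair were not shared by most neighbours. Of the 5 genes on each side of Rasgrf1 with a named probe set, 6 of the 10 were measured and their median log2 ratio was -0.02. Besides Ctsh these were Minar1 (165.6 in MatDp(dist2) against 192.8 in PatDp(dist2)), the trafficking gene Tmed3 (3036 in MatDp(dist2) against 3822 in PatDp(dist2)) and Tbc1d2b (990.1 in MatDp(dist2) against 1010.4 in PatDp(dist2)). The last 2 of the 6, the zinc finger genes Zic1 and Zic4 of the cerebellum and dorsal neural tube, were higher in MatDp(dist2). Zic1 had 3371 in MatDp(dist2) against 1288.5 in PatDp(dist2), a 2.62-fold difference, and Zic4 had 309 in MatDp(dist2) against 194 in PatDp(dist2), or 1.59-fold. The others, Gm26611, Mthfs, the noncoding gene 4930524O08Rik beside Rasgrf1 and Adamts7, lay below the floor in both heads.

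Around Ntm and Opcml, which follow each other in the gene order, 8 of 10 neighbours were measured and 0 were 2-fold apart, with log2 ratios from -0.34 to 0.31 and a median of 0.02. The lowest was that of the condensin gene Ncapd3, with 827 in MatDp(dist2) against 1047 in PatDp(dist2). The highest was that of Vps26b, a retromer subunit, with 1148.5 in MatDp(dist2) against 926 in PatDp(dist2). Thyn1, Jam3, Snx19, Adamts15, Zbtb44 and St14 lay between these, and Spata19 and Adamts8 were below the floor in both heads.

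Over Chr 9 as a whole, 4.26% of 704 measured genes were higher by 2-fold or more in MatDp(dist2) and 3.12% in PatDp(dist2), close to the shares over all genes. The share higher in MatDp(dist2) ranked 11 of 20 chromosomes. Opcml had rank 11 from the highest of the 704 ratios, Ntm rank 53 and Ctsh rank 350. These ranks use the brightest probe set of each gene, which for Ntm, 1426283_at, had the lowest of its 3 ratios. The place of Rasgrf1, whose value is a bound, moved with the floor, from rank 4 of 704 here to rank 3 of 833 with the 30th percentile and rank 59 of 509 with the 70th, settings tried after the data were seen. In 4 parts of the gene order of 250 or 251 genes each, counted from the centromere, the share higher in MatDp(dist2) was 5.03%, 3.47%, 4% and 4.52%. Opcml and Ntm, at places 158 and 159 of 1002 genes, lie in the first part, while Rasgrf1, at place 648, lies in the third. Because the breakpoint is not placed, it is not given here whether Ntm and Opcml lie in the duplicated part.

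**Figure D2:**
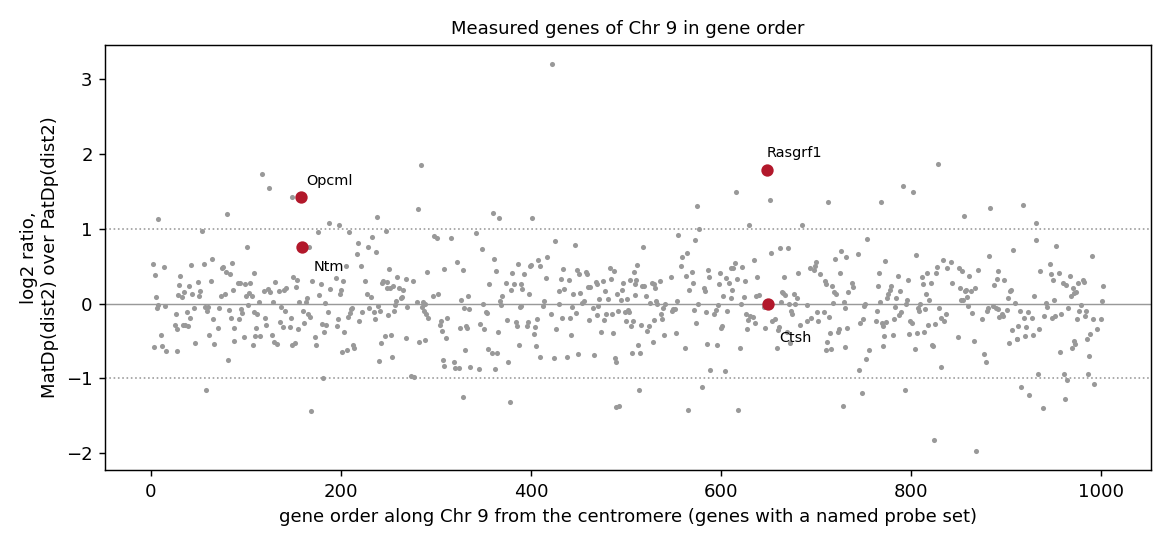
Log2 ratio of the MatDp(dist2) over the PatDp(dist2) signal for the 704 measured genes of Chr 9 (grey, brightest probe set), in gene order from the centromere, with the members in red and dotted lines at 2-fold. Rasgrf1, a bound, and Opcml stand above the upper line, Ntm below it and Ctsh at 0, among genes on both sides of 0 in each of the 4 parts of the gene order.

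The genes with the highest ratios on Chr 9 were named after their values were seen. Above the bound of Rasgrf1, an order that holds for this floor, were Islr2 (1718 in MatDp(dist2) against 128.6 in PatDp(dist2)), Celsr3 (811 in MatDp(dist2) against 222.5 in PatDp(dist2)) and Dscaml1 (674 in MatDp(dist2) against 163.4 in PatDp(dist2)), each known for a role in axon or neurite development. Between Rasgrf1 and Opcml came Plppr2, Camkv, Elavl3, Bsn, Elovl4 and B3gat1. Elavl3 is a neuron marker and Bsn encodes a scaffold of the presynapse.

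Most neuron markers had a higher signal in MatDp(dist2), as Rasgrf1, Ntm and Opcml had. Of 21 neuron markers 20 were measured, of which 15 had a higher and 5 a lower signal there. Of the 20, 9 were higher by 2-fold or more in MatDp(dist2) and 0 in PatDp(dist2), with a median of 1.79-fold. Over all measured genes 4.43% were higher by 2-fold or more in MatDp(dist2) and 3.47% in PatDp(dist2). The signals of all 21 neuron markers, measured or not, summed to 47141 in MatDp(dist2) and to 27530 in PatDp(dist2). Slc17a7, a glutamate transporter of cortical neurons, was below the floor in both heads. The part of this shift in the ratios of Rasgrf1, Ntm and Opcml was not tested.

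Set side by side, 1 of the 20 neuron markers, Tubb3 at 3.68-fold, had a ratio as high as the bound of Rasgrf1. That number was 0 of 21 when the floor was the 30th percentile and 13 of 19 when it was the 70th. The next were Gad1 at 3.41-fold and Dcx at 3.37-fold. As high as both Opcml probe sets were 4 of the 20, as high as the highest Ntm probe set were 8, and as high as the lowest Ntm probe set were 13. The lowest ratio among the markers was that of Camk2a, with 268 in MatDp(dist2) against 451.5 in PatDp(dist2), and the neurofilament genes Nefl, Nefm and Nefh and Thy1 also had lower signals in MatDp(dist2). Ntm thus had ratios near the middle of the neuron markers and Opcml above most of them, while the place of Rasgrf1 among them depends on the floor.

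Markers of glia, muscle and macrophages were not higher by 2-fold in MatDp(dist2) in any case, while those of skin and lens were. Of 7 measured markers of astrocytes and radial glia 4 were higher in MatDp(dist2), 0 of them by 2-fold. In PatDp(dist2) 2 were higher by 2-fold or more. The sums over all 8 on the array, measured or not, were 23267 in MatDp(dist2) against 20812 in PatDp(dist2). Of 5 measured markers of oligodendrocytes and myelin 2 were higher by 2-fold or more in PatDp(dist2). The sums over all 7 on the array, measured or not, were 3583 in MatDp(dist2) against 8160 in PatDp(dist2). All 9 skeletal muscle markers and all 4 measured macrophage markers had lower signals in MatDp(dist2), by median log2 ratios of -0.34 and -0.51. Of these, 1 muscle gene was higher by 2-fold or more in PatDp(dist2), the myoglobin gene Mb, with 224 in MatDp(dist2) against 2983 in PatDp(dist2), or 13.3-fold. The largest differences after Mb were those of Tnnt3 and Des in muscle, both lower in MatDp(dist2). In astrocytes and radial glia they were those of S100b and Aqp4, lower in MatDp(dist2), and of Fabp7, higher there. In myelin they were those of Mbp, Cnp and Mag, lower in MatDp(dist2), while Olig1 and the bound of Olig2 were slightly higher there. In macrophages they were those of Csf1r, Ptprc and Adgre1, lower in MatDp(dist2). Higher in MatDp(dist2) were the largest of epidermis, Flg, Lor and Krt10, and of lens, Cryba1, Cryga and Crybb1. Gfap, Mog, Mobp and Aif1 were below the floor in both heads. At least 2-fold higher in MatDp(dist2) were 5 of 7 epidermis markers and 5 of 6 lens markers. The shares over all measured genes were 4.43% in MatDp(dist2) and 3.47% in PatDp(dist2). The lens sum was 30726 in MatDp(dist2) against 222 in PatDp(dist2), where every lens marker lay below the floor. All 6 lens values are thus bounds that passed the floor through MatDp(dist2) alone.

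**Figure D3:**
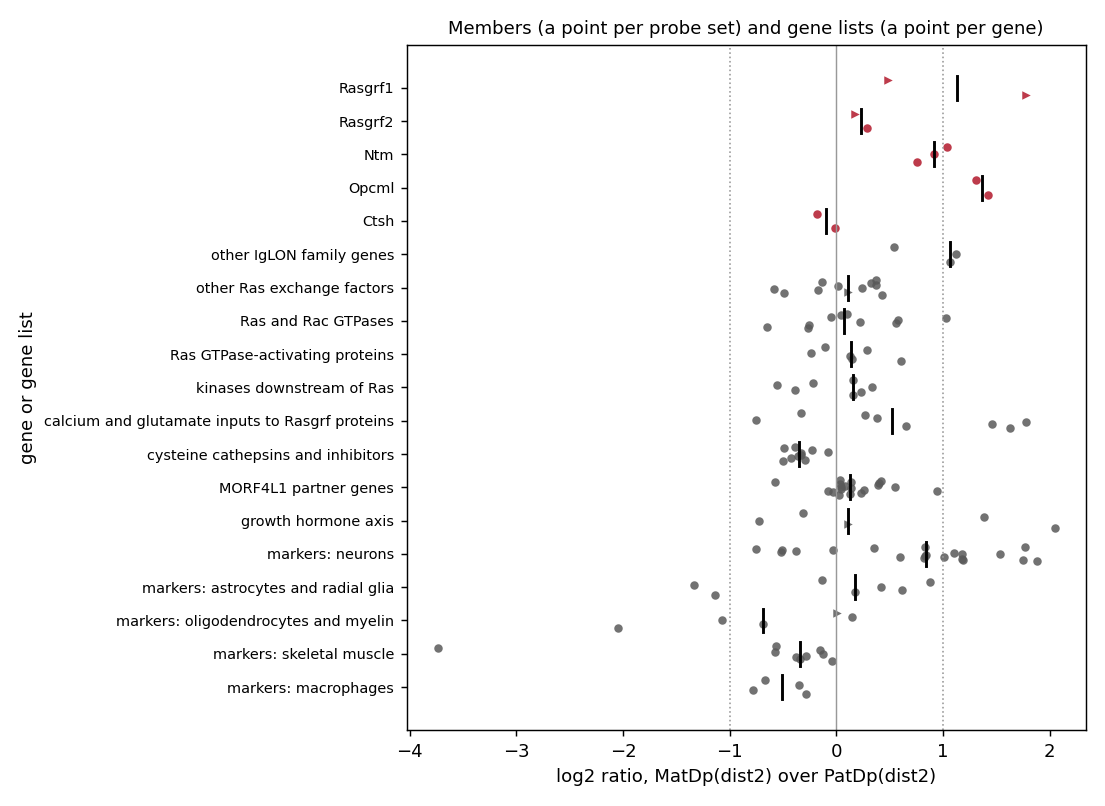
Log2 ratio of the MatDp(dist2) over the PatDp(dist2) signal for the measured probe sets of each member (red) and for the measured genes of each list (grey), with triangles for bounds, black bars for medians and dotted lines at 2-fold. Epidermis and lens markers are not drawn. Rasgrf1, Ntm, Opcml, the other IgLON genes and 15 of 20 neuron markers lie to the right of 0, and the medians of Rasgrf2, Ctsh and the Ras pathway lists lie within 2-fold.

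Genes of the pathway around Rasgrf1 are given next, beside shares over all genes of 4.43% higher in MatDp(dist2) and 3.47% in PatDp(dist2) by 2-fold or more. Of 11 other measured Ras exchange factors 0 were 2-fold apart, with a median log2 ratio of 0.11. Rasgrp3 (349 in MatDp(dist2) against 523 in PatDp(dist2)), Sos2 (1293 in MatDp(dist2) against 1814 in PatDp(dist2)) and Sos1 (1569.5 in MatDp(dist2) against 1168 in PatDp(dist2)) differed the most. Of 10 measured Ras and Rac GTPases 1 was higher by 2-fold or more in MatDp(dist2), the neuronal Rac gene Rac3, with 1287 in MatDp(dist2) against 629 in PatDp(dist2). Rras (1598 in MatDp(dist2) against 2511 in PatDp(dist2)) and Rac2 (573 in MatDp(dist2) against 385 in PatDp(dist2)) followed, and the median was 0.07.

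Regulators and effectors of Ras were listed apart. Of 6 measured GTPase-activating proteins, which turn Ras off, 0 were 2-fold apart, with a median log2 ratio of 0.14. Nf1 had the largest difference, with 506.5 in MatDp(dist2) against 332 in PatDp(dist2), ahead of Rasal2 and Rasa3. Of 7 measured kinases downstream of Ras 0 were 2-fold apart, with a median of 0.15, and Rps6ka3 (2312 in MatDp(dist2) against 3390 in PatDp(dist2)) differed the most, ahead of Map2k1 and Map2k2.

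Among the calcium and glutamate inputs to the Rasgrf proteins, 3 of 8 measured genes were higher by 2-fold or more in MatDp(dist2) and 0 in PatDp(dist2), with a median log2 ratio of 0.52. The AMPA receptor gene Gria2 had 3363 in MatDp(dist2) against 982 in PatDp(dist2), a 3.43-fold difference. Grin2b, an NMDA receptor subunit that binds the Rasgrf1 protein, had 593.5 in MatDp(dist2) against 191.9 in PatDp(dist2), or 3.09-fold. Gria1 had 770 in MatDp(dist2) against 279 in PatDp(dist2), or 2.76-fold. These 3 receptors are genes of neurons and had ratios above both probe sets of Opcml.

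Mice that lack the paternal copy of Rasgrf1 are known to be small with low growth hormone, and the growth hormone axis was listed for that reason. Of 5 measured genes 2 were higher by 2-fold or more in MatDp(dist2) and 0 in PatDp(dist2), with a median log2 ratio of 0.11. Over all measured genes these shares were 4.43% and 3.47%. Gh, the growth hormone gene of the pituitary, had 2146 in MatDp(dist2) against 519 in PatDp(dist2), a 4.14-fold difference. Sst, for somatostatin, an inhibitor of growth hormone release, had 969 in MatDp(dist2) against 372 in PatDp(dist2), or 2.61-fold. The receptor gene Ghr had 1768 in MatDp(dist2) against 2923 in PatDp(dist2), while Ghrh and Prl were below the floor in both heads. The median of this list rests on few genes and was 1.38 with the floor at the 30th percentile. A link between these values and Rasgrf1 was not tested, and neuron, epidermis and lens markers also differed between the heads.

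The genes most like Rasgrf1 and Ntm were found as those whose brightest probe set lay nearest in the plane of the log2 signals, which rests on 2 arrays only. Nearest to Rasgrf1 were Nol4, Lim2, St6gal2, Gpc2 and Dsg1a, within 0.18 log2 units. Lim2 encodes a lens membrane protein and Dsg1a an epidermal desmosome protein, so the same pair of signals was found in genes of other tissues. Nearest to Ntm were Ptprn2, Pik3r3, Ccdc184, Dusp26 and Rgs17, within 0.08 log2 units. None of these 10 genes lies on Chr 2 or Chr 9.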

How the data were processed

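Signals of 2 arrays, 1 per genotype, were used as deposited. They are an intensity per probe set on a linear scale that the authors made with MAS5 and GCOS, per the submitters' processing notes. No version is given there. Each array's trimmed mean, without 2% at each end, was 500.002, so the deposited signals are already scaled. Scaling to a common mean assumes like total RNA, and mismatch-corrected signals are noisy when dim. Detection calls were not used here, and the floor took their place. Of 45101 probe sets, 34945 had 1 gene symbol, and 34741 of these were renamed or placed by gene ID in a RefSeq table for GRCm38.p6, used for names and gene order only. The 932 with several symbols and 9160 unlisted ones were left unnamed. Folds, bounds and counts were computed in Python 3.11.15, and the ratio step was tested on simulated data. Named genes were all member probe sets, 5 neighbours on each side, the 3 largest differences of each list, and the 5 most alike genes. Of 167 list entries 150 were on the array. Members and lists were chosen with earlier results of these data known. Alternatives were other floors, scalings, an offset, other fold thresholds and a mean over probe sets. The number of arrays limits the precision.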

Additional observations from a re-analysis of the deposited data

How the results depend on the processing

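No paired analysis was possible because each genotype had 1 array. Of 17 results under their alternatives, 92 of 116 values stayed on their side of 2-fold and within the robust SD of 0.41 in log2 ratio, or within 1.5 times for counts, and 0 changed direction. For Rasgrf1, the log2 ratio of 1435614_s_at was 2.24 with the 30th percentile as floor, and 0.47 with the 70th, and that of 1422600_at was 1.80 with the lower floor. At that floor 1424734_at gained a bound of 1.14. With the higher floor, 1422600_at and Rasgrf2 1440918_at lay below it on both arrays and are missing from the values counted. Ntm 1426282_at was at 0.94 with the higher floor, 0.9998 with median centring, 0.95 with quantile normalization, 0.95 with the lowess fit and 0.89 with the offset of 100. The 4 member probe sets higher in MatDp(dist2) were 1 with the higher floor and 1 at a 3-fold threshold. Chr 9 genes higher in MatDp(dist2), 30 as reported, were 16 with the higher floor, 73 at 1.5-fold and 5 at 3-fold, and those higher in PatDp(dist2), 22 as reported, were 74 at 1.5-fold and 2 at 3-fold. Over the genome, genes higher in MatDp(dist2), 553 as reported, were 833 with the lower floor, 266 with the higher one, 356 with the offset, 1496 at 1.5-fold and 146 at 3-fold, and those higher in PatDp(dist2), 433 as reported, were 1353 at 1.5-fold and 100 at 3-fold. Floor and threshold change these counts by their construction. Medians of the 16 gene lists, recomputed under alternatives added after the data were seen, kept their sign in all 96 values, and 8 moved past the same limits, in the lists for IgLON genes, growth hormone axis, lens and myelin. The cause of the smaller shifts was not tested. Signal near background limits Rasgrf1 to bounds, since none of its probe sets reached the floor in PatDp(dist2).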
